A study of Mus musculus with 4 samples.

Results

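Hox genes encode homeodomain transcription factors that give cells along the trunk their position from head to tail. In the mouse they lie in 4 clusters, Hoxa to Hoxd, and genes that descend from the same ancestral gene share a number, the paralog group. Genes with low numbers are used from the hindbrain and neck backwards, and genes with higher numbers only from more posterior levels, so the set of Hox genes in a vertebra is a code of its axial level. Vertebrae keep part of this code in adult skeletal cells. Every gene named Hoxa, Hoxb, Hoxc or Hoxd followed by a number was taken, which gave 39 of the 32286 genes measured, with 11 genes in cluster A, 10 in B, 9 in C and 9 in D.

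The data are UMI counts (1 count per captured mRNA molecule) from 4 droplet single-cell RNA-seq libraries of tdTom+ cells sorted from mouse vertebrae T11 to L2, which span the last thoracic and first lumbar levels. The control libraries at 3 months and at 12-16 months came from Prss56Cre/+;R26tdTom/tdTom;Nf1+/+ mice. The mutant libraries at both ages came from Prss56Cre/Cre;R26tdTom/tdTom;Nf1fl/fl mice, so the genotypes differ in Nf1 and also in Cre dose, with 1 Cre allele in control and 2 in mutant mice. In both, Cre is made from the Prss56 locus, which marks boundary cap cells and their descendants, and tdTom stays on in cells in which Cre has acted. Only vertebrae with visible tdTom signal had been taken, CD11b+, CD31+, CD45+ and dead cells had been discarded, and neither the number of mice nor the mix of vertebrae in each library was given. A different mix of vertebrae therefore cannot be told apart from genotype or age in any comparison between libraries, and with 1 library per condition no such comparison was tested.

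Of 2172 barcodes, 1757 passed the filters of the study (more than 750 UMIs, more than 500 genes, less than 7% mitochondrial counts), with 717 in control and 484 in mutant at 3 months and 135 in control and 421 in mutant at 12-16 months. Cells were gated by genes other than Hox genes. Cartilage cells carried at least 1 UMI of Sox9 and 3 of Acan (1286 cells, 89 to 562 per library), bone/stroma cells at least 1 UMI of Runx2 and at most 2 of Acan (194 cells, 27 to 83), and mural cells at least 3 UMIs of Rgs5 and Myh11 together (58 cells, 3 to 26). Median depth of cartilage cells was 12639, 13677, 11655 and 8671 UMIs in the order control and mutant at 3 months, then control and mutant at 12-16 months, which is the order of all series of 4 values here. The cartilage gate held its marker list at 14170 to 17370 CPM (UMIs per 1e+06 UMIs of the gate), and the mural gate held its list at 19270 to 40140 CPM. The lists of the cartilage, bone/stroma and mural gates include the genes that set these gates. High levels there were thus in part fixed by the gating. The bone/stroma gate was less uniform. Its osteoblast and stroma list was at 85250, 10840, 140200 and 53250 CPM, and the hematopoietic list at 12.7, 1870, 300.4 and 499.5 CPM. In the 3-month mutant library 23 of its 39 cells carried a UMI of Ptprc, which encodes CD45, against 1, 2 and 7 cells in the other libraries and no cartilage cell, so the bone/stroma results are given with and without these 33 cells. Nf1 itself was at 133.6, 159.8, 145.2 and 124.4 CPM in cartilage cells, but 3′ tags do not cover a deletion elsewhere in the gene and do not check the genotype.

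The homeodomain is the part of a Hox protein that contacts DNA, and its last helix lies in the major groove. The coding bases of that helix (17 codons, 51 bases, from the GENCODE vM21 transcripts on GRCm38) are shown for Hoxc8, for Hoxb6, which leads cluster B in the mutant libraries and on average (Hoxb7 leads it in the control libraries), and for Hoxc10, the most abundant gene of paralog groups 10 to 13, since these 3 genes carry results that follow. Capitals mark codons for another residue than in Hoxc8.
Hoxb6: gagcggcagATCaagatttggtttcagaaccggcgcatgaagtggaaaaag
Hoxc8: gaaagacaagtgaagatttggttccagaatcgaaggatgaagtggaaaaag
Hoxc10: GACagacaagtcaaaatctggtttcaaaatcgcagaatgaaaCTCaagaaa

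The stretch of Hoxc8 lies at chr15:102992694-102992744, that of Hoxc10 at chr15:102970971-102971021 and that of Hoxb6 at chr11:96300812-96300862, all on the plus strand and in coding exons. Hoxb6 changed 1 of the 17 residues relative to Hoxc8, and Hoxc10 changed 2 at other codons. The bases differed more than the residues, at 11 positions in Hoxb6 and 14 in Hoxc10. Over the 60 residues of the homeodomain, Hoxc8 shared 98.3% with Hoxb8 and 93.3% with Hoxd8, its partners in paralog group 8, but 80% with Hoxb6 and 68.3% with Hoxc10. Across all 39 genes, pairs of the same group shared a median of 93.3% (42 pairs) and pairs of different groups 61.7% (699 pairs), a lower value for genes that differ in number.

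The 4 clusters are compact. On GRCm38, HoxA spans 105291 bases at chr6:52155590-52260880, HoxB 173941 bases at chr11:96194316-96368256, HoxC 115750 bases at chr15:102921103-103036852 and HoxD 96833 bases at chr2:74668310-74765142. Exons of neighbouring genes overlap in places, and 9 members share exonic bases with another gene on the same strand. Hoxc5 shares 166 bases with Hoxc10, and Hoxd3 shares 388 bases with Hoxd4. The largest shares are with Gm28230, at 53.09% of the exonic bases of Hoxd3 and 39.15% of those of Hoxd4. The split of reads between such neighbours is uncertain.

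Hox transcripts were found in nearly every cartilage cell. Their sum was 902.3 CPM (95% Poisson interval 882 to 923.1), 901.3 (877.1 to 926), 953.3 (901.1 to 1008) and 913.5 (878.8 to 949.2), and at least 1 Hox UMI was present in 98.8%, 99.2%, 96.6% and 98.1% of cartilage cells. The 4 libraries thus lay within a narrow range of total Hox level. Intervals here and below cover counting error only. In 53 cells with a Ptprc UMI but none of Sox9, Runx2, Rgs5 or Myh11, a measure of free RNA and of hematopoietic Hox expression, 21 Hox UMIs of 6 genes gave 51.3 CPM, and a Hox UMI was found in 22.2% and 17.4% of such cells in the 3-month and 12-16-month mutant libraries (median of 9122.5 UMIs per cell in the former). By library these background cells numbered 12, 18, 0 and 23, and those of the 3-month control library held 20102 of their 409017 UMIs. They thus hardly cover the control libraries. A cartilage cell carried a median of 6, 8, 6 and 5 different Hox genes and at most 21. At an equal depth of 5000 UMIs per cell the mean number of Hox genes was 3.47, 3.68, 3.69 and 3.58, so the lower median of the 12-16-month mutant library went with its lower depth.

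The code was broad. Over all passing cells 28 members had at least 20 UMIs, 7 had 1 to 19 and 4 had none. In cartilage, cluster C gave 46.3% of the 16584 Hox UMIs, B 26.8%, A 17.5% and D 9.38%. The levels that follow are CPM, which count molecules and are not divided by length, and differences in capture between genes remain in them.

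**Figure D1:**
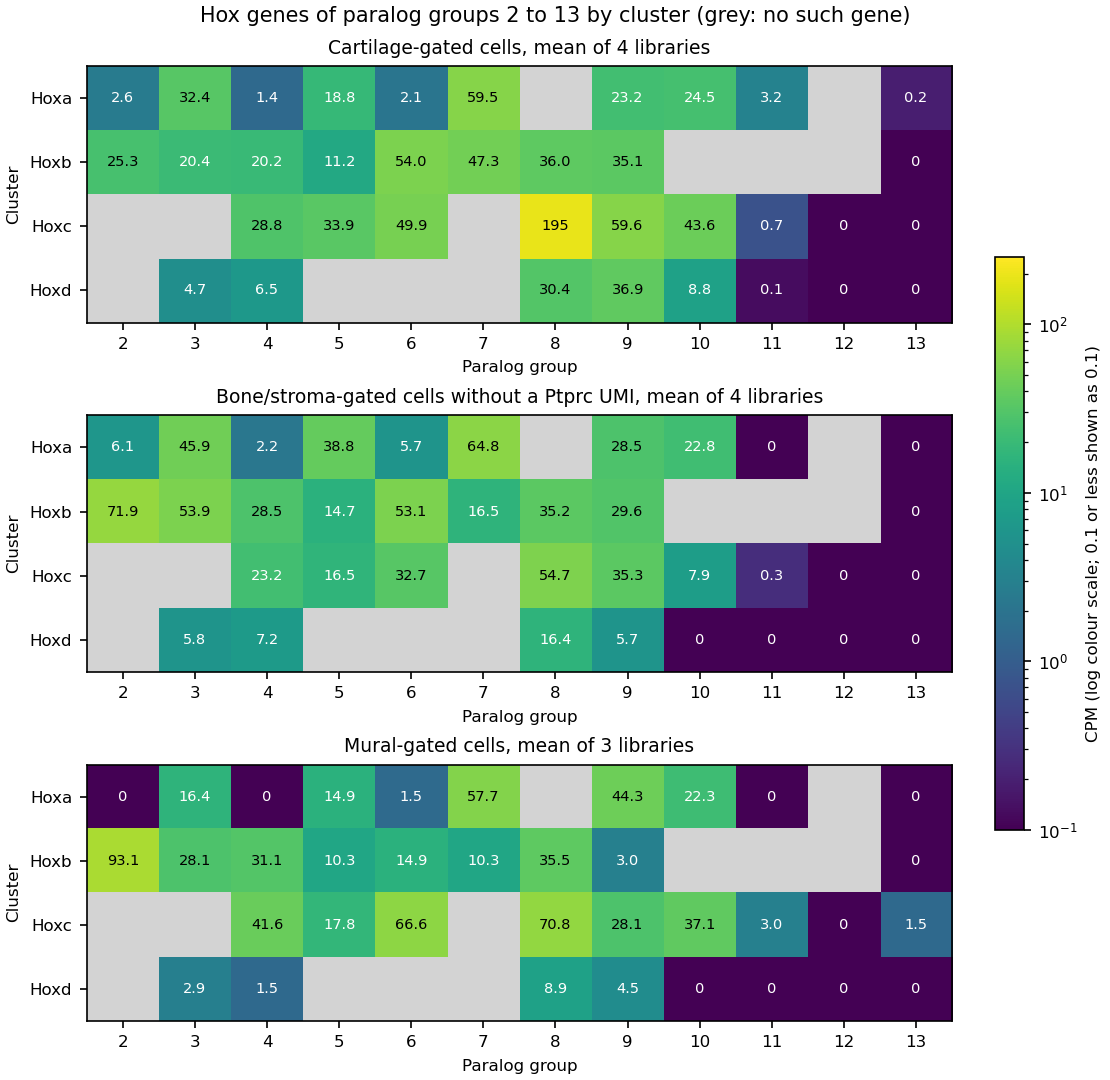
Mean CPM of each Hox gene of paralog groups 2 to 13 in cartilage, bone/stroma (without Ptprc+ cells) and mural cells, with clusters as rows and paralog groups as columns, on a log colour scale (grey, no such gene). In cartilage Hoxc8 stands out at 195 CPM and levels fall below 4 CPM from group 11 on.

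Hoxc8, a group-8 gene known for patterning thoracic vertebrae and ribs, was the most abundant Hox gene in cartilage in each of the 4 libraries, with 240.8, 187.5, 190.3 and 162.8 CPM (mean 195 ± 32.7, SD over the 4 libraries, which differ in genotype and age). It was found in 80.8%, 80.4%, 68.5% and 63.2% of cartilage cells, and in none of the 53 background cells, of which only 12 came from a control library. The next gene in the order was Hoxc6 in control (63.3 CPM) and Hoxb6 in mutant (57.1 CPM) at 3 months, and Hoxa7 in control (78 CPM) and Hoxb6 in mutant (63.9 CPM) at 12-16 months, and its interval did not reach that of Hoxc8 in any of the 4 libraries. The genes below Hoxc8 lay close together. Hoxc9 was at 57.6, 51.7, 72.6 and 56.6 CPM (mean 59.6 ± 9.04, n = 4) and Hoxa7 at 54, 47.6, 78 and 58.3 CPM (mean 59.5 ± 13.1), and their order differed between libraries.

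Of the anterior groups, Hoxb2 (mean 25.3 CPM), Hoxa3 (32.4) and Hoxb3 (20.4), used from the hindbrain and upper neck backwards, were all found, while Hoxa2 (2.6) and Hoxd3 (4.71) were low, and Hoxb1 and Hoxd1, used early in development, had 2 UMIs each over all cells. Groups 4 and 5, used from the cervical spine backwards, were led by Hoxc5 (33.9), Hoxc4 (28.8), Hoxb4 (20.2) and Hoxa5 (18.8), with Hoxb5 at 11.2, Hoxd4 at 6.5 and Hoxa4 at 1.43 CPM. These genes therefore made up part of the code at T11 to L2 at levels near those of several posterior genes.

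The thoracic groups 6 to 8 held Hoxc8 and several of the genes next to it in the order. Hoxb6 was at 45.9, 57.1, 48.9 and 63.9 CPM and Hoxc6 at 63.3, 55.8, 38.2 and 42.3 CPM, both of a group known to promote ribs, but Hoxa6 of the same group was at 2.1 CPM on average. Hoxb7 averaged 47.3 CPM, Hoxb8 36 and Hoxd8 30.4. Levels varied within a paralog group, and the 3 genes of group 6 ranged from 2.1 to 54 CPM.

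Levels fell steeply between groups 10 and 11, and group 11 was low but present. Group 9, known to shape the lower ribs, averaged 59.6 CPM for Hoxc9, 36.9 for Hoxd9, 35.1 for Hoxb9 and 23.2 for Hoxa9. Group 10, known to suppress ribs and so define lumbar vertebrae, was at 43.6 CPM for Hoxc10, 24.5 for Hoxa10 and 8.76 for Hoxd10. Summed over its genes, group 10 was at 63.4, 57.3, 95.6 and 91.2 CPM, and group 11, known to define the sacrum, at 1.57, 3.76, 6.88 and 4.19 CPM. Most of the group-11 UMIs were of Hoxa11 (11, 14, 8 and 9 in cartilage), with 2, 7, 1 and 2 of Hoxc11 and 2 of Hoxd11 in all. Of the terminal groups 12 and 13, Hoxa13 had 1 UMI and Hoxc13 had 2 over all cells, and Hoxb13, Hoxc12, Hoxd12 and Hoxd13 had 0, which allows a share of cells with a UMI of up to 0.171% of the 1757 cells and sets no limit on cells that express them below detection.

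**Figure D2:**
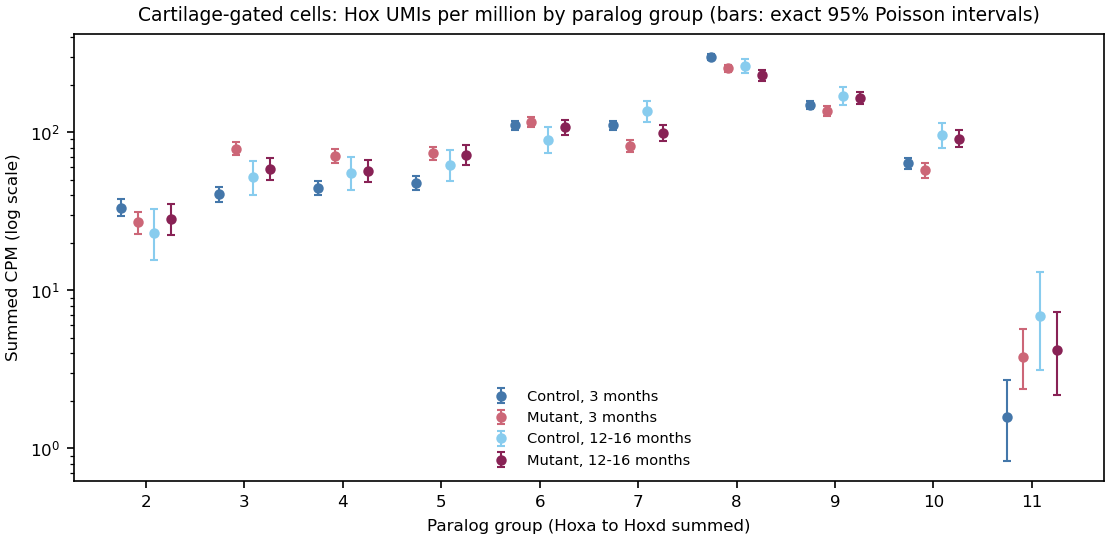
CPM summed over Hoxa to Hoxd for each of paralog groups 2 to 11 in cartilage cells, with 1 point per library and exact 95% Poisson bars on a log axis. Group 8 is highest (228.8 to 300.2 CPM) in each library, and group 11 lies at 1.57 to 6.88 CPM.

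Weighting each Hox gene by its UMIs, the mean paralog number in cartilage was 7.13 (95% interval 7.09 to 7.18), 6.76 (6.70 to 6.82), 7.23 (7.11 to 7.34) and 7.04 (6.96 to 7.13). The 3-month mutant library was the lowest, with an interval that did not meet those of the other libraries. The same library had the lowest mean in each cluster taken alone, with 6.05 in A against 6.57 to 7.04, 5.80 in B against 5.91 to 6.28, 7.43 in C against 7.59 to 7.72 and 7.74 in D against 8.07 to 8.22. Among cartilage cells without a Runx2 UMI this no longer held for cluster B. Its means there were 6.36, 6.56, 6.57 and 6.46, and the 3-month control library was lowest. Over all Hox genes the 3-month mutant interval in those cells (6.962 to 7.159) met that of the 12-16-month mutant library (7.149 to 7.378). In cells with a Runx2 UMI it (6.53 to 6.677) met that of the 3-month control library (6.675 to 6.88). From the most posterior to the most anterior mean, the order of the clusters was D, C, A, B in each of the 4 libraries. The clusters do not hold the same paralog groups, and cluster C has no gene below group 4. This order therefore depends in part on which genes a cluster holds.

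Hox UMIs of bone/stroma cells were on average of more anterior groups. The vertebra that each cell came from was not given. A different mix of vertebrae between the gates therefore cannot be told apart from cell type in this and the following comparisons of gates. Total Hox level was 594.1, 291.2, 550 and 746.1 CPM, below cartilage in each library, and 595.9, 926.3, 594.2 and 789.4 CPM without the Ptprc+ cells, which left the 3-month mutant library level with its cartilage (901.3 CPM). The mean paralog number of bone/stroma cells was 5.43, 6.43, 5.75 and 5.88, and 5.43, 6.19, 5.72 and 5.82 without the Ptprc+ cells, below cartilage in each library both ways. The Ptprc+ cells of this gate held 117 Hox UMIs, of which 49 were of Hoxa9, a gene that is also used in blood progenitors, and 36 of those 49 came from the 3-month mutant library.

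To compare the gates, UMIs were summed per library and gate and tested across all genes with edgeR's quasi-likelihood test, with the library as a term and Benjamini-Hochberg adjustment over all genes tested. The libraries stand in as replicates, so the spread behind these p-values is that between libraries of different genotype and age. Of the 39 members 21 passed the filter on low counts. Against bone/stroma, 7 of the 21 were higher in cartilage (13.4% of the 9798 genes tested were called higher) and none was lower (11% of all genes). DESeq2 also called none lower. An unadjusted edgeR p under 0.05 was found for 12 of the 21, all higher in cartilage. Over all 9798 genes it was found for 3575, in either direction. The median log2 ratio was 0.82 for the 21 genes and -0.0039 for all genes tested (16 of 21 positive, against 49.7% of all).

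Posterior genes led. Hoxd9 was at 32.8, 32.3, 37.5 and 45.1 CPM in cartilage and 0, 2.32, 2.74 and 8.26 CPM in bone/stroma. The values of the gates did not overlap, and Hoxd9 was higher in cartilage by 3.63 on the log2 scale (SE 0.50, edgeR adjusted p = 0.002125). Hoxc10 was at 35.2, 35.1, 51.2 and 52.8 CPM in cartilage and 3.8, 1.16, 6.86 and 13.4 CPM in bone/stroma, again without overlap, a log2 ratio of 2.99 (SE 0.40, edgeR adjusted p = 0.001937). Hoxc8 was at 46.9, 15.1, 41.2 and 55.7 CPM in bone/stroma, below each cartilage library, with a log2 ratio of 2.48 (SE 0.36, edgeR adjusted p = 0.002878). Hoxb7 (log2 ratio 2.03), Hoxc5 (1.70) and Hoxc9 (1.48) were also higher, with edgeR adjusted p of 0.004563, 0.01712 and 0.007952. Hoxa10 was the weakest call (1.04, SE 0.30, edgeR adjusted p = 0.04602), and it was lost with DESeq2 (adjusted p = 0.061), without the library term (edgeR adjusted p = 0.066), without the Ptprc+ cells (edgeR adjusted p = 0.33) and when the 3-month control, 12-16-month control or 12-16-month mutant library was left out (edgeR adjusted p = 0.13 to 0.17). Hoxc5 was lost without the 12-16-month control library (edgeR adjusted p = 0.077), which left 5 calls. Hoxd10 had no UMI in bone/stroma in any library, against 10.2, 4.62, 12.2 and 8.03 CPM in cartilage, and did not pass the filter.

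**Figure D3:**
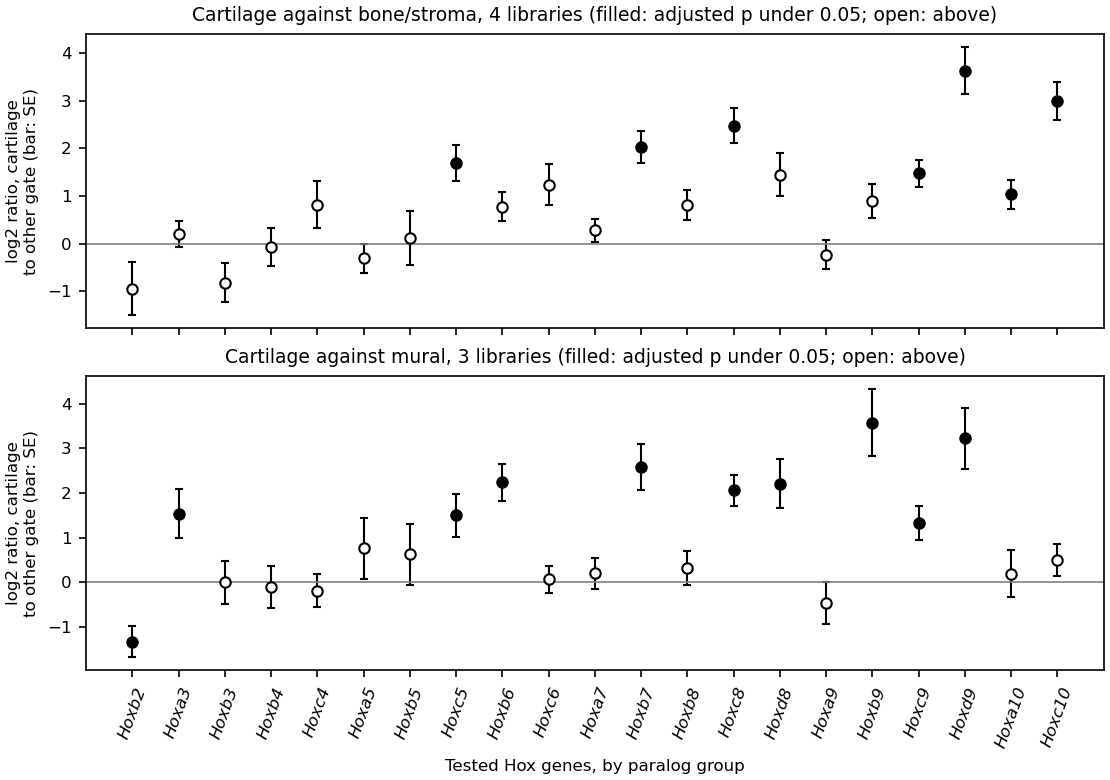
Log2 ratio of cartilage to bone/stroma (top, 4 libraries) and to mural cells (bottom, 3 libraries) for the 21 Hox genes tested, in order of paralog group, with SE bars (filled, adjusted p under 0.05). Against bone/stroma the called genes lie from Hoxc5 on, and Hoxd9 and Hoxc10 are highest at 3.63 and 2.99.

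Without the 33 Ptprc+ cells there were calls of both signs. Again 7 members were higher (18.1% of the 9626 genes tested), with Hoxa10 lost and Hoxd8 gained (0.94, edgeR adjusted p = 0.02354). In cartilage 3 of 21 were lower, a share not above the 17.1% of all genes called lower. Hoxb2, at 104.2, 26.5, 90.7 and 66.2 CPM in bone/stroma and 29.5, 22.9, 21.4 and 27.2 CPM in cartilage, was lower in cartilage by a log2 ratio of -1.44 (SE 0.29, edgeR adjusted p = 0.003949). Hoxb3 (-1.37, SE 0.22, edgeR adjusted p = 0.000899) and Hoxa5 (-0.86, SE 0.26, edgeR adjusted p = 0.02871) were lower as well. With the Ptprc+ cells the same genes gave -0.94, -0.82 and -0.30 and were not called. Leaving out the whole 3-month mutant library also called Hoxb2 and Hoxb3 lower. Hoxc8 (1.94), Hoxc10 (2.51) and Hoxd9 (3.11) remained higher without the Ptprc+ cells. All 3 genes lower in cartilage belong to groups 2 to 5, and the 7 higher to groups 5 to 10. Not every posterior gene was higher in cartilage. Hoxa9 was not called, with a mean of 28.5 CPM in bone/stroma without the Ptprc+ cells and 23.2 CPM in cartilage.

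Sums by cluster and group are given within each library as descriptions with counting intervals, and the 3-month mutant library differed from the others in part. Cluster C was 2.05 to 9.09 times as high in cartilage as in bone/stroma and cluster D 2.33 to 7.54 times, with intervals above 1 in 4 of 4 libraries for both. Without the Ptprc+ cells the ranges were 1.88 to 3.32 (4 of 4 intervals above 1) and 1.65 to 5.23 (3 of 4). Cluster A was at 0.82 to 1.33 times, and 0.49 to 1.23 times without those cells. Cluster B was at 0.81 to 2.94 times with those cells, and without them below 1 in 4 of 4 libraries, at 0.75 to 0.96 times (3 of 4 intervals below 1). Groups 1 to 4 together were 0.52 to 0.68 times as high in cartilage without the Ptprc+ cells, with intervals below 1 in 4 of 4 libraries. With them, the range was 0.52 to 2.25, and the ratio above 1 was that of the 3-month mutant library. Groups 5 to 9 together were 1.09 to 2.06 times as high in cartilage without the Ptprc+ cells (3 of 4 intervals above 1). The 3-month mutant library gave the lowest of these ratios (1.09, 0.90 to 1.32). Its groups 7, 8, 9 and 10 were at 0.91, 1.78, 0.96 and 0.98 times without those cells.

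Mural cells, the contractile cells around vessels, had total Hox levels of 759.7, 649.1 and 594.7 CPM in control and mutant at 3 months and mutant at 12-16 months. The 12-16-month control library held 3 mural cells and was left out of the fit. Of 21 members tested, 9 were higher in cartilage (17.2% of the 10611 genes tested) and 1 was lower (12.1%). The median log2 ratio was 0.62 for the members and 0.20 for all genes tested. Hoxb9 was at 0, 0 and 9.01 CPM in mural cells against 38, 31.3 and 31.4 CPM in cartilage of the same libraries (log2 ratio 3.58, SE 0.75, edgeR adjusted p = 0.002396), and Hoxd9 was at 0, 0 and 13.5 CPM (3.23, SE 0.69, edgeR adjusted p = 0.002563). Hoxb7 (2.58), Hoxb6 (2.24), Hoxd8 (2.21), Hoxc8 (2.06), Hoxa3 (1.54), Hoxc5 (1.5) and Hoxc9 (1.33) were higher too. Hoxa3, Hoxc5 and Hoxc9 lost the call with DESeq2 and Hoxd8 lost it without the 12-16-month mutant library.

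Hoxb2 was the member lower in cartilage than in mural cells, at 150.2, 75.1 and 54.1 CPM in mural cells (log2 ratio -1.33, SE 0.34, edgeR adjusted p = 0.009474). Its mean over the 3 libraries was 93.1 CPM, but Hoxa7 was above it in the 3-month mutant library (88.3 CPM) and Hoxc6 in the 12-16-month mutant library (58.6 CPM). The call was lost without either 3-month library (edgeR adjusted p = 0.072 without control and 0.052 without mutant). Hoxc10, in contrast to its bone/stroma values, was at 26.5, 35.3 and 49.6 CPM in mural cells and was not called (log2 ratio 0.50, SE 0.36, edgeR adjusted p = 0.35). Its 95% counting limits in such small gates are wide, as 10, 19 and 26 cells lie behind these values. The 2 comparisons share the cartilage sums, so the 5 genes called higher in both (Hoxb7, Hoxc5, Hoxc8, Hoxc9 and Hoxd9) are not independent results.

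Hox proteins bind DNA together with TALE homeodomain cofactors of the Pbx, Meis and Pknox families. Of 9 listed cofactors 8 were tested, and Meis1 (-1.93, edgeR adjusted p = 0.02945) and Pbx3 (-1.78, edgeR adjusted p = 0.0029) were among those lower in cartilage than in bone/stroma. The 3-month mutant bone/stroma gate stood apart with 433.9 CPM of Meis1, against 45.6 to 100.1 CPM in the other libraries. The Meis1 call was lost without the 12-16-month control or the 12-16-month mutant library (edgeR adjusted p = 0.084 and 0.086). Without the Ptprc+ cells Meis1 (-0.89) and Pbx3 (-1.54) were lower, and Meis3 was lower as well (-1.55, edgeR adjusted p = 0.0101). Against mural cells Meis1 (2.71) and Pknox2 (3.32) were higher, and Pbx3 (-1.18) was lower.

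Of 10 noncoding genes of the clusters 3 were tested against bone/stroma, and 1, Hoxd3os1, was higher in cartilage (2.05, edgeR adjusted p = 0.0175; 1.53 without the Ptprc+ cells, edgeR adjusted p = 0.005965), where 13.4% of all genes were. Against mural cells 4 were tested, Hoxd3os1 was higher (2.32; 17.2% of all genes) and Hotairm1 (-1.18) and Hoxb3os (-2.20) were lower (12.1%). These genes lie antisense or next to Hox genes, and reads of overlapping genes may be shared. Of 23 regulators of the clusters, such as Polycomb, Trithorax, Cdx and retinoic acid genes, 15 were tested against bone/stroma, and 2 were higher (Ezh1 1.07 and Rarg 0.89), a share close to the 13.4% of all genes, and none lower. Without the Ptprc+ cells Ezh1 (0.88) and Kdm6b (0.75) were higher and Bmi1 (-1.20) and Gdf11 (-4.52) lower, while Rarg was not called (0.51, edgeR adjusted p = 0.09). Against mural cells 3 of 18 were higher, close to the 17.2% of all genes (Ezh2 1.65, Kdm6a 1.00 and Rarg 2.65) and 1 lower. The latter was Gdf11, a ligand that acts on trunk-to-tail patterning, at 88.3, 30.9 and 49.6 CPM in mural cells and under 1 CPM in cartilage.

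Other positional genes also differed between the gates. Of 14 listed, 7 were tested and 3 were higher in cartilage than in bone/stroma (13.4% of all genes) and 1 was lower (11%). Pax1, a gene of the sclerotome and of the intervertebral disc, was at 216, 226.7, 273.7 and 241.4 CPM in cartilage and 15.2, 1.16, 6.86 and 27.9 CPM in bone/stroma (log2 ratio 4.54, edgeR adjusted p = 0.00165). Meox2 (3.72) and Pax9 (1.13), also genes of somites and sclerotome, were higher, and Shox2, a skeletal growth gene, was lower (-4.49, edgeR adjusted p = 0.00028). Without the Ptprc+ cells these 4 kept their direction and call, and En1 (-2.17) and Tbx15 (-0.98) were lower too. Against mural cells 7 were tested, Pax1, Pax9 (2.79) and Meox1 (3.94) were higher in cartilage (17.2% of all genes) and Tbx18, a gene used in mural cells, was lower (-2.58; 12.1%).

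Between libraries, the values of cartilage cells are set side by side as descriptions. A gene with 20 or more UMIs in the pair of libraries counted as past the fold where its CPM differed by more than 2 times, and the 4 comparisons share libraries with each other. At 3 months 3 of 28 Hox genes were past it upwards in mutant over control (10.4% of all 13273 genes) and 1 downwards (6.83%). Hoxb3 was at 12.1 CPM in control and 26.9 in mutant (ratio 2.22, 95% interval 1.72 to 2.88), Hoxb5 was at 5.69 and 13.9 CPM (2.44, 1.68 to 3.57), Hoxd4 at 4.96 and 10.4 CPM (2.10, 1.39 to 3.20) and Hoxd10 at 10.2 and 4.62 CPM (0.45, 0.28 to 0.71). At 12-16 months 0 of 24 Hox genes were past 2-fold in either direction (3.83% of all genes upwards and 3.83% downwards). With age in control, Hoxd3 was past it upwards (1 of 25; 7.84% of all genes) and Hoxa2 downwards (4.28%), both with intervals that held 1. With age in mutant, no Hox gene of 27 was past it upwards (5.09% of all genes) and Hoxa2 was past it downwards (0.27, 0.05 to 0.88; 6.03%). The members' shares were thus near the share of all genes in each comparison.

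Summed by paralog group, the 3-month mutant library was above its control in groups 3 to 5 but not in group 2, which was at 33.4 CPM in control and 26.9 in mutant (ratio 0.80, 0.66 to 0.98). Group 3 was at 40.7, 78.7, 52 and 58.7 CPM, group 4 at 44.7, 71, 55 and 56.9 CPM, and group 5 at 47.7, 73.7, 61.9 and 72 CPM. Mutant over control at 3 months the ratios were 1.94 (1.68 to 2.23), 1.59 and 1.55. Together groups 3 to 5 had a ratio of 1.68 (1.55 to 1.82) at 3 months and 1.11 (0.95 to 1.31) at 12-16 months. The share of cartilage cells with a Runx2 UMI was 16.7% in control and 51.2% in mutant at 3 months, and within cells without one the 3-month ratio was 1.35 (1.18 to 1.53) and within cells with one 1.41 (1.25 to 1.60). The ratio was thus smaller within either kind of cell than over all cartilage cells. The gene with the largest count in these groups, Hoxa3, was at 25.4, 47.2, 24.5 and 32.5 CPM.

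The sums of groups 7 and 8 went the other way, but not every gene of group 8 did. Group 7 was at 110.5, 81.8, 135.3 and 99.6 CPM, with mutant-to-control ratios of 0.74 (0.66 to 0.83) at 3 months and 0.74 (0.61 to 0.89) at 12-16 months. Of its genes Hoxb7 was at 56.5, 34.2, 57.3 and 41.2 CPM, and Hoxa7 at 54, 47.6, 78 and 58.3 CPM. Group 8 was at 300.2, 254.9, 263 and 228.8 CPM. Hoxc8 had a ratio of 0.78 (0.72 to 0.84) at 3 months and of 0.86 (0.73 to 1.00) at 12-16 months. Its partners Hoxb8 and Hoxd8 were not lower in mutant at 3 months. Hoxb8 was lowest in the 3-month control library (30.8 CPM), and Hoxd8 was highest in the 3-month mutant library (35.2 CPM). At 12-16 months Hoxb8 was at 45.1 CPM in control and 36 in mutant. At 12-16 months the ratio of groups 7 and 8 together was 0.98 within cells without a Runx2 UMI and 0.69 within cells with one.

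**Figure D4:**
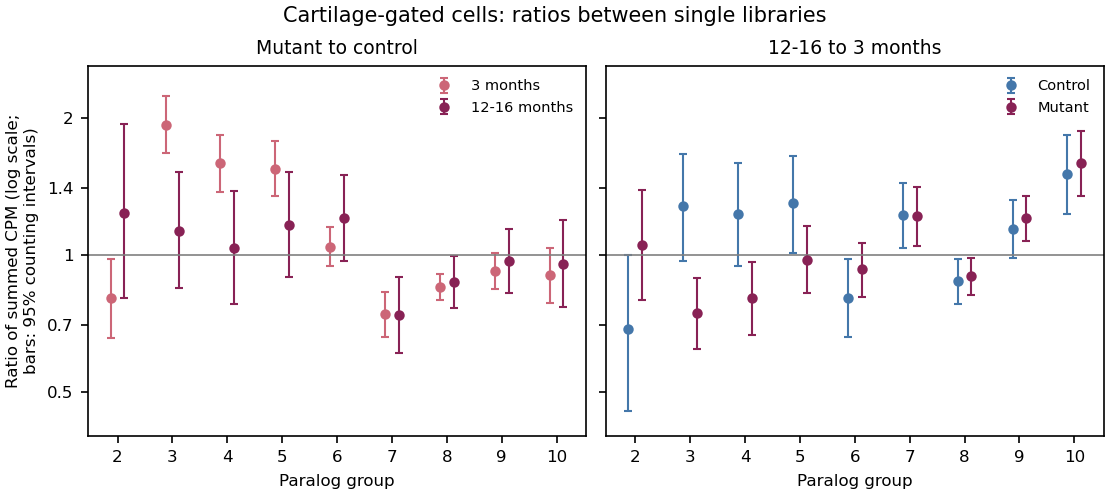
Ratio of summed CPM in cartilage cells between single libraries for paralog groups 2 to 10, mutant to control (left) and 12-16 to 3 months (right), on a log axis with 95% counting bars. Groups 3 to 5 lie above 1 in mutant at 3 months (1.94, 1.59 and 1.55), and group 10 lies above 1 with age in both genotypes (1.51 and 1.59).

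By age, group 10 was higher in the older library of both genotypes, and the mix of vertebrae cannot be told apart from age. Group 10 was 1.51 times as high at 12-16 as at 3 months in control (1.23 to 1.83) and 1.59 times in mutant (1.35 to 1.88). Hoxa10 was at 18, 17.6, 32.1 and 30.4 CPM, so both older libraries lay above both younger ones, as they did for Hoxc10. For Hoxd10 the 12-16-month mutant library lay above the 3-month mutant library but below the 3-month control library. At an equal depth of 5000 UMIs, the share of cartilage cells with a UMI of groups 10 to 13 was 23.3% (exact interval 19.8 to 27.1) of 536 cells, 23.6% (19.3 to 28.3) of 369, 32.9% (23.2 to 44.7) of 81 and 33.5% (27 to 40.2) of 210. Unthinned shares were 39.2%, 43%, 48.3% and 46.9%. Background cells of the 12-16-month mutant library had a thinned share of 2.83%, and those of the 3-month mutant library 0, and no background cell of the 3-month control library reached 5000 UMIs. Within cartilage cells without a Runx2 UMI the age ratio of groups 10 to 13 was 1.55 (1.20 to 1.97) in control and 1.18 (0.92 to 1.51) in mutant, so the latter held 1. Bone/stroma cells had thinned shares of 4.93%, 10.1%, 9.28% and 12.6%, below cartilage in each library. Without the Ptprc+ cells the shares were 4.93%, 20.6%, 10.1% and 12.5%, where that of the 3-month mutant library rests on 12 cells (exact interval 2.09 to 48.4). There the summed level of groups 10 to 13 was 58.2 CPM in bone/stroma and 61.1 CPM in cartilage (ratio 1.05, 0.58 to 2.12), so no difference was detectable in that library.

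Cartilage cells with a Hoxc10 UMI were set beside the other cartilage cells of their library, and some but not all of the other posterior genes were higher in them. This split was made after values were seen and is a description. Cells with a Hoxc10 UMI (156, 133, 31 and 82) had 2.22, 2.19, 2.51 and 1.57 times the Hoxa9 CPM of the other cartilage cells of their library, with intervals above 1 in 4 of 4 libraries. For Hoxd9 the ratios were 2.33, 2.21, 1.62 and 1.83 (3 of 4 intervals above 1), and for Hoxa10 3.40, 2.96, 1.81 and 1.28 (2 of 4). Hoxc8, of the same cluster as Hoxc10, was at 0.90, 0.82, 1.05 and 0.85 times, and Hoxb8 at 0.95, 0.81, 0.62 and 0.89 times. Hoxd8, of the same paralog group as these 2 genes, was at 1.611, 1.575, 1.392 and 1.585 times (3 of 4 intervals above 1). Hoxc9 was at 1.506, 1.131, 1.138 and 1.032 times (1 of 4). Hoxb9 was at 1.48, 0.99, 0.54 and 0.69 times. Groups 10 to 13 without Hoxc10 were at 3.06, 3.25, 1.80 and 1.01 times, so the 12-16-month mutant library showed no difference, and there Hoxd10 was at 0.77 times and Hoxa11 had 0 UMIs in cells with Hoxc10 and 9 in the others. Groups 1 to 4 were at 1.20, 0.99, 1.61 and 1.36 times (3 of 4 intervals above 1), so the difference was not limited to posterior genes. Cells with a Hoxc10 UMI were deeper, with a median of 14610 UMIs against 11930 in control at 3 months, and the part of depth in these ratios was not tested.

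**Figure D5:**
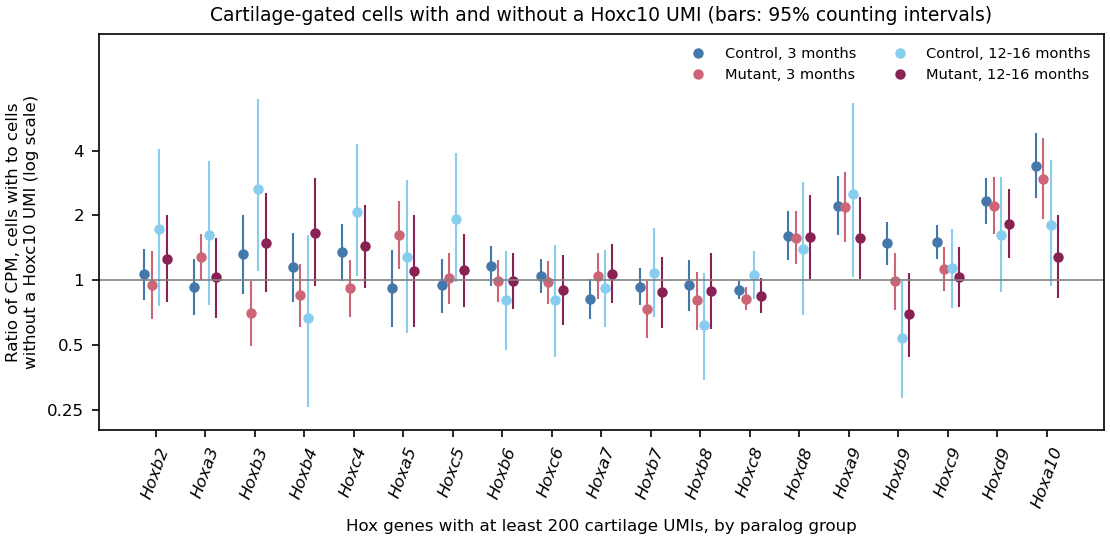
Ratio of CPM in cartilage cells with a Hoxc10 UMI to those without, for Hox genes with at least 200 cartilage UMIs, 1 point per library on a log axis with 95% counting bars. Hoxd8, Hoxa9, Hoxc9, Hoxd9 and Hoxa10 lie above 1 in each library (1.03 to 3.40), and Hoxb8 lies below 1 (0.62 to 0.95).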

How the data were processed

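Vertebral tdTom+ cells were profiled with the 10x 3′ v3.1 kit. The authors deposited raw counts (UMIs of each gene in each barcode) from Cell Ranger 8.0.0 and mm10, to which tdTomato had been added. Whether intronic reads were counted is not given in the sources used here, and the free-RNA correction of the study was not repeated. Passing cells held 2154537 to 9429264 UMIs per library. Groups came from the sample labels. Libraries shared 0 barcodes.

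No doublet caller was run; leaving out the 10 cells in more than 1 gate was an alternative. Levels are CPM with exact 95% Poisson intervals, ratios have conditional binomial and shares Clopper-Pearson intervals. Gates were compared with edgeR 4.0.16 in R 4.3.3 (TMM, filterByExpr, quasi-likelihood, library term, at least 10 cells per gate and library), with DESeq2 1.42.0 as an alternative. The fit was tested on simulated data with the same spread for all genes and library shifts shared by both gates. That test does not cover a gate whose cells differ between libraries. Thinned shares are expected values at 5000 UMIs. Hox genes with at least 20 UMIs were named with values. Members, lists and gates were chosen with earlier results of these data known, and the split of cartilage cells by Runx2 was added after seeing the data. Some genes and sequences of the lists are not reported here.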

Additional observations from a re-analysis of the deposited data

How the results depend on the processing

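Total Hox CPM in cartilage moved to 937.6 with TMM sizes in control at 3 months, to 885.4 as a mean over cells in control at 12-16 months, and within cells without a Runx2 UMI to 871.6 and 877.9 in mutant at 3 and 12-16 months and 899.4 in control at 12-16 months. In the order control and mutant at 3 months, then at 12-16 months, the mean paralog number was 7.23, 7.06, 7.41 and 7.26 without Runx2+ cells and 6.82, 6.44, 7.03 and 6.84 without Hoxc8, so the 3-month mutant library stayed lowest. Shares with a UMI of groups 10 to 13 were 14%, 13.2%, 20.0% and 18.2% at 2500 UMIs and 39.2%, 43%, 48.3% and 46.9% unthinned. The log2 ratio of total Hox level, mutant to control at 3 months, was -0.0017, and -0.056 without Runx2+ cells, -0.086 with TMM and 0.11 without Hoxc8. The log2 ratio of cartilage to bone/stroma was 0.60, 1.63, 0.79 and 0.29, and 0.40, 0.91, 0.33 and 0.11 as means over cells. It reversed to -0.039 in mutant at 3 months without Ptprc+ cells, the 23 of 39 cells of that gate. Without a filter on low counts 11 of 34 Hox genes were called against bone/stroma, all higher in cartilage, adding Hoxa11, Hoxc6, Hoxd8 and Hoxd10. Of all 23021 genes of that fit 1923 were called higher and 1802 lower. Hoxa11 and Hoxd10 had 0 UMIs in bone/stroma. Leaving out each library gave 5 to 10 calls against bone/stroma. The 5 of 22, without the 12-16-month control library, were all higher, as were 872 of all 11133 genes. The 10 of 21, without the 3-month mutant library, were 8 higher and 2 lower, against 1737 and 1607 of all 9945 genes. Against mural cells each gave 7 calls, 6 or 7 of them higher, with 1224 to 1560 of all genes higher (10758 to 11884 tested). Leaving 2 libraries there assumes an equal spread. Of all values recomputed under an alternative, 88 that answer a comparison were counted as unchanged, 29 moved and 1 reversed (all given above). Unchanged meant within counting error or, for numbers of called Hox genes, near the main number. Which genes were called, and in which direction, did not enter. The fit without Ptprc+ cells, with 7 Hox genes higher and 3 lower, was thus counted as unchanged. Of the other values 126 stayed and 10 ratios of summed groups moved with the split by Runx2. The 3 mural cells of the 12-16-month control library, and 1 library per condition, limit what can be told. No paired analysis was possible because each condition has 1 library and the labels pair none; the library term was the block between gates.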
